A study of Arabidopsis thaliana with 15 samples.

Results

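The 7 genes followed here are the 5 class III homeodomain-leucine zipper (HD-ZIP III) genes of Arabidopsis thaliana, REV (REVOLUTA, AT5G60690), PHB (PHABULOSA, AT2G34710), PHV (PHAVOLUTA, AT1G30490), CNA (CORONA, AT1G52150) and ATHB8 (AT4G32880), and the LITTLE ZIPPER genes ZPR1 (AT2G45450) and ZPR3 (AT3G52770). They were chosen by family and locus, not by their values, although earlier results of these data were known. They are 7 of the 33602 genes in the deposited table. The series sequenced messenger RNA of Col-0 hypocotyl explants that were first made to form callus and then induced to form shoots, at a lower or a higher temperature. All 15 libraries come from the same wild-type ecotype, with about 100 explants pooled per library and 3 libraries per group. The starting group (0 h) was cut from 7-day-old seedlings raised in darkness at 22 °C. The CIM groups spent 4 days in light at 17 °C or 27 °C on callus-inducing medium, which held the auxin 2,4-D at 0.5 mg per litre and the cytokinin kinetin at 0.1 mg per litre. The SIM groups spent 4 further days at 17 °C or 27 °C on shoot-inducing medium, which held the cytokinin 2-iP at 0.5 mg per litre and the auxin IAA at 0.15 mg per litre.

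HD-ZIP III proteins are plant transcription factors that bind DNA as dimers, and in Arabidopsis they specify the upper (adaxial) side of lateral organs, shoot meristem activity and the pattern of vascular tissue. The small RNAs miR165 and miR166 cut their messenger RNAs. LITTLE ZIPPER proteins carry a leucine zipper but no DNA-binding domain, pair with HD-ZIP III proteins into dimers that cannot bind DNA, and are themselves encoded by genes that HD-ZIP III proteins activate in Arabidopsis.

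Libraries held 3427707 to 4446863 counts, and levels are given in CPM, read counts scaled for depth by TMM-corrected library sizes, as the mean ± SD. Libraries 1 and 3 of CIM at 27 °C differed by less than the sampling noise (0 genes past a binomial test, against 1 to 201 genes in the other 14 pairs within groups) and were averaged into 1 sample in the means, so n = 2 there and n = 3 in the other groups. The tests kept these libraries separate, so each p-value for CIM at 27 °C counts them as 2, and an alternative fit merged them. By chi-square per gene the pair was not distinct: it was under 1 in 10 of the 15 pairs, at 0.732 for this pair and 0.72 for libraries 1 and 2 of SIM at 27 °C. The labels do not say that libraries of a group came from separate cultures, so each p-value reflects nothing but the spread among these libraries, which may be technical, and the fitted common dispersion was 9.77e-05. Seed maturation transcripts (12 genes) summed to 1270, 5.36 and 853 CPM in 0 h libraries 1, 2 and 3. Photosynthesis transcripts (12 genes) summed to 111, 115 and 263 CPM in libraries 1, 2 and 3 of CIM at 17 °C, and library 2 of CIM at 27 °C had a count for the most genes, 24396. In bulk tissue, fewer cells of a type and less RNA per cell cannot be told apart.

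The feature that sets the 5 HD-ZIP III transcripts apart from the LITTLE ZIPPERs is a miRNA site, shown here because these letters link each gene to miR165 and miR166. The RefSeq annotation of the TAIR10.1 assembly holds 2 miR165 loci with 1 mature sequence and 7 miR166 loci with 1 mature sequence, each 21 bases long. They differ by the substitution C17U, counted from the 5′ end, and share the seed, bases 2 to 8, in capitals below.
miR165: uCGGACCAggcuucauccccc
miR166: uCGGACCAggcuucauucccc
In each of the 5 HD-ZIP III transcripts the best match paired with 18 of the 21 bases. The sites lie in coding sequence and span an exon junction, so the genomic interval includes an intron. Capitals mark bases paired with miR165, or with miR166 for CNA.
REV, plus strand, exons 4 and 5 of 18, chr5:24398787-24398898: ctGGGATGAAGCCTGGTCCGg
PHB, minus strand, exons 4 and 5 of 17, chr2:14642530-14642666: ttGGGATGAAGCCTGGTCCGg
PHV, minus strand, exons 4 and 5 of 18, chr1:10799330-10799445: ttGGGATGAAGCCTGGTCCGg
CNA, minus strand, exons 4 and 5, chr1:19412976-19413085: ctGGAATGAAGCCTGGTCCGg
ATHB8, minus strand, exons 5 and 6 of 18, chr4:15866872-15866974: ctGGGATGAAGCCTGGTCCGg
The REV and ATHB8 sites were identical, as were those of PHB and PHV. Counted from the 5′ end of the site, PHB differed from REV by T1C and CNA differed from REV by A5G. In ZPR1 and ZPR3 the closest stretch paired with 11 or 12 bases.

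All 7 genes passed the filter on low counts, and their levels fell into 2 classes. Across all libraries the HD-ZIP III genes lay between 89.9 and 244 CPM, whereas ZPR1 lay between 2.12 and 37.6 CPM and ZPR3 between 2.63 and 15.7 CPM. REV (chromosome 5, 24397023 to 24402195, plus strand) was highest at 0 h, PHB (chromosome 2, 14639323 to 14644273, minus strand) on CIM, and PHV (chromosome 1, 10796135 to 10800961, minus strand), CNA (chromosome 1, 19409711 to 19414678, minus strand) and ATHB8 (chromosome 4, 15863452 to 15868625, minus strand) on SIM. ZPR1 (chromosome 2, 18733275 to 18734127, minus strand) and ZPR3 (chromosome 3, 19557721 to 19559007, minus strand) were lowest at 0 h and highest on SIM at 27 °C. No pair of these genes shares a stretch of 50 bases apart from PHB and PHV, so the division of reads between PHB and PHV is slightly uncertain. They share 15 such stretches, counted at every start position, so these can overlap within a single shared segment.

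**Figure D1:**
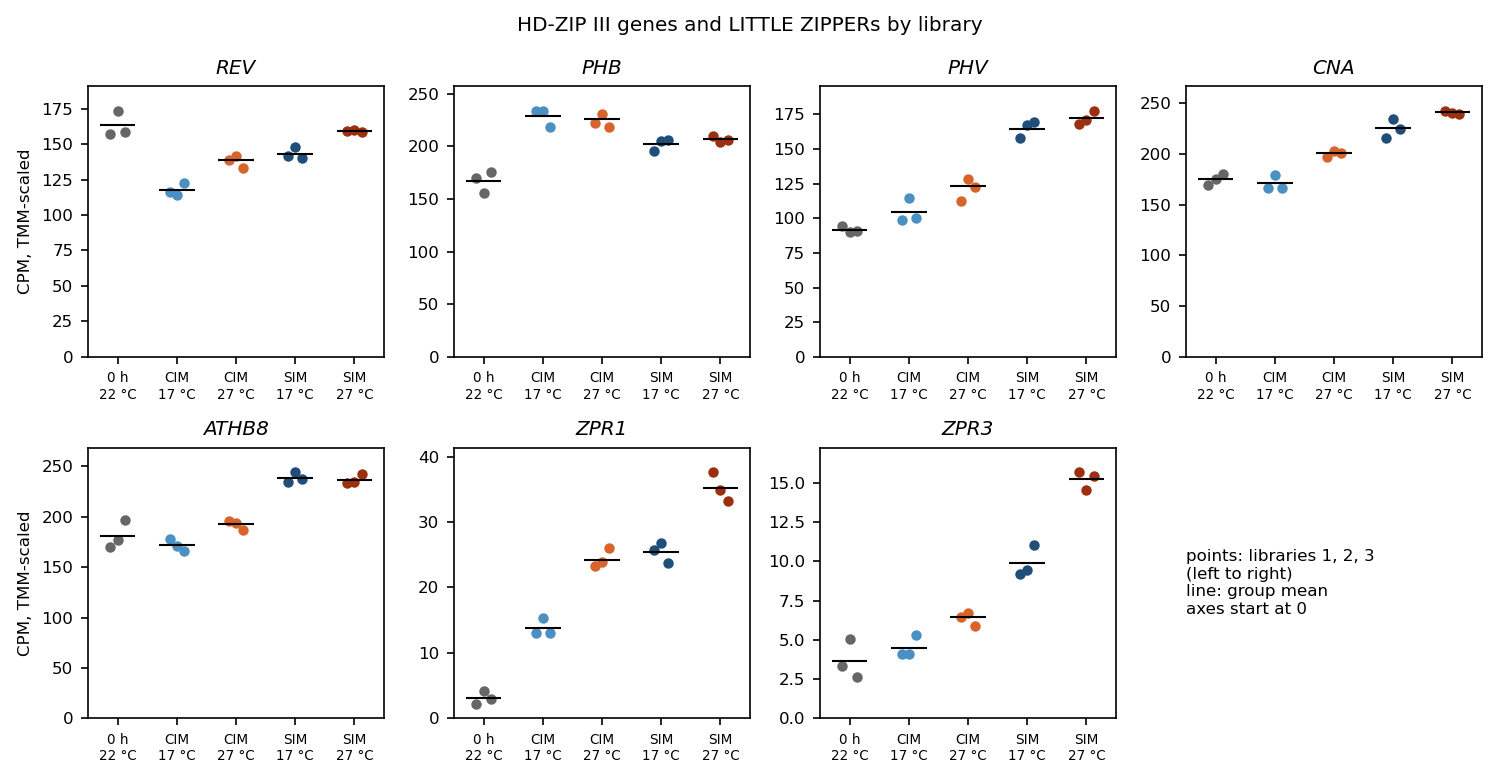
Level of each of the 7 genes in CPM (y axis, from 0) by group (x axis), with 1 point per library and a line at the group mean. REV is lowest on CIM at 17 °C (114 to 123 CPM), PHB is lowest at 0 h (156 to 175 CPM), and ZPR1 and ZPR3 reach 33.2 to 37.6 and 14.5 to 15.7 CPM on SIM at 27 °C.

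The first question the design poses is what temperature did on CIM. At 27 °C, 5 of the 7 genes were higher than at 17 °C and 0 were lower (edgeR quasi-likelihood test, adjusted p under 0.05), where 21.6% of all 20704 genes tested were called higher and 21% lower. The median log2 fold change was 0.22 over the 7 genes and 0.02 over all genes. The HD-ZIP III changes were small, at most 1.17-fold, whereas ZPR1 rose 1.76-fold.

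REV, an activator of adaxial and meristem genes, stood at 117, 114 and 123 CPM at 17 °C and at 139, 141 and 133 CPM at 27 °C. All libraries at 27 °C lay above all at 17 °C, a rise of 0.22 ± 0.04 on the log2 scale (edgeR adjusted p = 1.08e-04). CNA, which limits meristem size together with PHB and PHV, stood at 167, 179 and 167 CPM and then at 197, 203 and 201 CPM, again without overlap (0.23 ± 0.04, edgeR adjusted p = 1.41e-05). ATHB8, which marks procambium, the precursor of vascular tissue, went from 178, 171 and 166.5 CPM to 196, 193 and 187 CPM, also without overlap (0.16 ± 0.04, edgeR adjusted p = 0.00209).

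PHV, a close paralog of PHB with adaxial activity, was called with overlapping groups. It stood at 98.6, 115 and 100 CPM at 17 °C and at 112, 128 and 123 CPM at 27 °C (0.21 ± 0.05, edgeR adjusted p = 0.00226), and library 2 was the highest of each group. The calls of PHV (adjusted p = 0.193) and ATHB8 (adjusted p = 0.0777) were lost when library 3 at 17 °C and library 2 at 27 °C, which stand apart from the rest of their groups, were left out together. PHB did not pass the test, at 234, 234 and 218 CPM against 222, 231 and 219 CPM (log2 fold change -0.03, edgeR adjusted p = 0.564; fold 0.98, with a 95% interval from 0.931 to 1.03).

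Both LITTLE ZIPPERs had every library at 27 °C above every library at 17 °C on CIM, but only ZPR1 was called. The share of all genes whose libraries separate in this way was not computed, for this or the other comparisons. ZPR1 stood at 13.1, 15.4 and 13.0 CPM at 17 °C and at 23.3, 23.8 and 26.0 CPM at 27 °C. Its rise of 0.81 ± 0.12 on the log2 scale was called (edgeR adjusted p = 7.44e-07). ZPR3 stood at 4.07, 4.08 and 5.31 CPM and then at 6.45, 6.70 and 5.85 CPM, on 53 and 82 counts per group, and was not called (0.48 ± 0.23, edgeR adjusted p = 0.108).

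On SIM, 4 of the 7 genes were higher at 27 °C and 0 were lower, against 20.7% of all genes called higher and 22.9% lower. The 4 were both LITTLE ZIPPERs, REV and CNA, and the median log2 fold change over the 7 genes was 0.10. ZPR1 stood at 25.8, 26.8 and 23.7 CPM at 17 °C and at 37.6, 34.9 and 33.2 CPM at 27 °C, without overlap (0.47 ± 0.09, edgeR adjusted p = 6.68e-05). ZPR3 stood at 9.21, 9.47 and 11 CPM and then at 15.7, 14.5 and 15.4 CPM, also without overlap (0.62 ± 0.16, edgeR adjusted p = 0.0018).

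REV rose on SIM from 141, 148 and 140 CPM to 159, 160 and 159 CPM, with all libraries at 27 °C higher (0.15 ± 0.04, edgeR adjusted p = 0.00346). CNA went from 216, 234 and 225 CPM to 243, 241 and 239 CPM, a 1.07-fold difference without overlap (0.10 ± 0.03, edgeR adjusted p = 0.0203). The CNA call was lost with the DESeq2 test (adjusted p = 0.0849) and without any of libraries 1 and 2 at 0 h, 1 and 3 of SIM at 17 °C and 1 of SIM at 27 °C (adjusted p from 0.0519 to 0.153). PHB (fold 1.02, 95% interval 0.97 to 1.08), PHV (1.05, 0.984 to 1.11) and ATHB8 (0.992, 0.944 to 1.04) did not pass the test, and the groups of each overlapped.

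Whether the temperature effect itself differed between the media was tested as an interaction. It was called for 1 of the 7 genes, which was lower on SIM than on CIM, and 0 were higher, against 8.26% of all genes higher and 10.2% lower. That gene was ATHB8, with a difference of -0.17 ± 0.06 on the log2 scale (edgeR adjusted p = 0.0263), but the call was lost in 13 of 25 alternatives (adjusted p from 0.0515 to 0.224), among them the DESeq2 test (adjusted p = 0.181) and several removals of a single library. The other 6 were not called, with PHV at -0.14 (edgeR adjusted p = 0.184), CNA at -0.12 (edgeR adjusted p = 0.123) and ZPR1 at -0.34 ± 0.15 (edgeR adjusted p = 0.183). Without library 2 of CIM at 17 °C, PHV (adjusted p = 0.0278) and CNA (adjusted p = 0.0407) were called and ATHB8 was not (adjusted p = 0.0518).

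**Figure D2:**
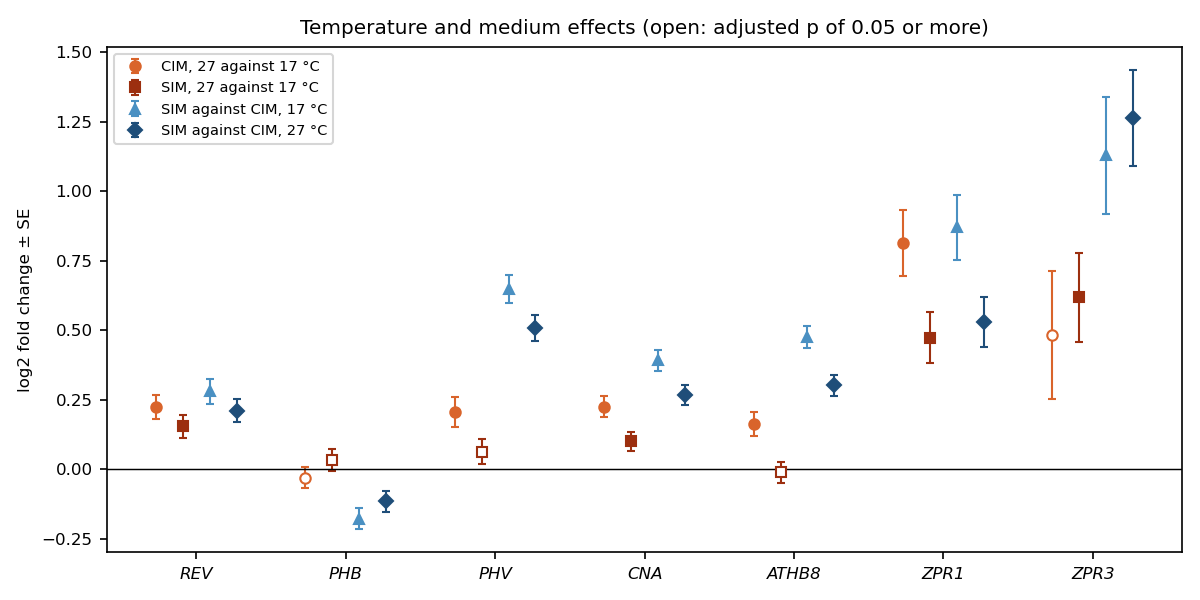
Log2 fold change ± SE (y axis) of the 7 genes (x axis) for 27 °C against 17 °C on each medium and for SIM against CIM at each temperature, filled where the edgeR adjusted p was under 0.05. ZPR1 (0.81 on CIM, 0.47 on SIM) and ZPR3 (0.48 and 0.62) lie above the HD-ZIP III genes, whose temperature effects run from -0.03 to 0.23.

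The step from 0 h to CIM combined hormone, light, wounding by the cut, time and a change of temperature, which cannot be told apart. At 17 °C, 3 of the 7 genes were higher than at 0 h and 1 was lower, against 37.7% and 39.5% of all genes. At 27 °C, 5 were higher and 1 was lower, against 39.5% and 40.4%. These comparisons share the 0 h libraries.

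The gene that fell was REV at either temperature. It stood at 157, 174 and 159 CPM at 0 h, above all CIM libraries, and fell by 0.47 (edgeR adjusted p = 3.55e-11) to CIM at 17 °C and by 0.25 (edgeR adjusted p = 4.07e-06) to CIM at 27 °C on the log2 scale. PHB moved the other way, from 170, 156 and 175 CPM at 0 h, below all CIM libraries, to means of 229 ± 9.02 and 226 ± 7.52 CPM (log2 0.45 and 0.42, edgeR adjusted p = 2.57e-11 and 7.92e-11). PHV, at 94.5, 89.9 and 90.7 CPM at 0 h, rose by 0.19 at 17 °C (edgeR adjusted p = 0.00507) and by 0.40 at 27 °C (edgeR adjusted p = 2.08e-07). The former call was lost without library 2 of CIM at 17 °C (adjusted p = 0.068). CNA, at 169, 175 and 180 CPM at 0 h, was called at 27 °C (0.20, edgeR adjusted p = 5.05e-05) and overlapped the 0 h group at 17 °C (-0.03, edgeR adjusted p = 0.570). ATHB8, at 170, 177 and 197 CPM at 0 h, overlapped both CIM groups and was called in neither, although 6 alternatives called it higher at 27 °C (adjusted p from 0.00431 to 0.034).

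ZPR1 changed most. It had 7, 14 and 10 counts at 0 h, or 2.12, 4.17 and 2.93 CPM, and rose 4.48-fold (95% interval 3.37 to 5.95) to CIM at 17 °C and 7.87-fold (6.17 to 10) to CIM at 27 °C. Every CIM library lay above every 0 h library (edgeR adjusted p = 3.8e-11 and 1.83e-16). ZPR3, with 11, 17 and 9 counts at 0 h, or 3.33, 5.06 and 2.63 CPM, was not called at 17 °C (log2 0.29, edgeR adjusted p = 0.373). It was called at 27 °C (0.78 ± 0.25, edgeR adjusted p = 0.00662). For ZPR3 the result depended on the 0 h libraries: against 0 h library 2 alone, the library without the high seed maturation transcripts, the changes were -0.14 at 17 °C and 0.33 at 27 °C (adjusted p = 0.432), and without 0 h library 3 the latter had an adjusted p of 0.0656.

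Transfer from CIM to SIM raised 6 of the 7 genes and lowered 1 at 17 °C, against 24.7% of all genes higher and 23.4% lower. At 27 °C it also raised 6 and lowered 1, against 24.9% and 24.8%. The gene lowered was PHB each time. The median log2 fold change over the 7 genes was 0.48 at 17 °C and 0.30 at 27 °C, against 0.00 and -0.01 over all genes. The SIM libraries were also 4 days older than the CIM libraries, and medium and age cannot be told apart.

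Among the HD-ZIP III genes PHV rose most on transfer. Its SIM libraries at 17 °C stood at 158, 167 and 169 CPM and those at 27 °C at 168, 171 and 178 CPM, all above every CIM library (log2 0.65 ± 0.05 and 0.51 ± 0.05, edgeR adjusted p = 1.27e-12 and 5.01e-11). ATHB8 reached 234, 244 and 237 CPM at 17 °C and 233, 235 and 242 CPM at 27 °C, again above every CIM library (0.48 ± 0.04 and 0.30 ± 0.04, edgeR adjusted p = 7.74e-12 and 3.71e-08). The rises of CNA (0.39 and 0.27) and REV (0.28 and 0.21) were smaller, and their SIM libraries also lay above the CIM libraries of the same temperature. PHB fell by 0.18 at 17 °C, to 196, 205 and 206 CPM (edgeR adjusted p = 2.98e-04), and by 0.11 at 27 °C, to 210, 204 and 206 CPM (edgeR adjusted p = 0.0113). The latter call was lost with DESeq2 (adjusted p = 0.0547) and without library 2 of CIM at 27 °C (adjusted p = 0.0665), also when library 3 of CIM at 17 °C was left out with it (adjusted p = 0.0874).

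Of the LITTLE ZIPPERs, ZPR3 rose 2.19-fold (95% interval 1.64 to 2.91) at 17 °C and 2.40-fold (1.9 to 3.03) at 27 °C, and ZPR1 rose 1.83-fold (1.56 to 2.15) and 1.44-fold (1.28 to 1.63). All 4 changes were called, with edgeR adjusted p from 1.49e-07 to 3.09e-05. In each, all SIM libraries lay above all CIM libraries of the same temperature.

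Over the whole course, from 0 h to SIM at 17 °C, 6 of the 7 genes were higher and 1 lower, against 38.8% and 37.8% of all genes. From 0 h to SIM at 27 °C, 6 were higher and 0 lower, against 38.5% and 39.9%. ZPR1 was 8.18-fold (6.41 to 10.4) higher at 17 °C and 11.4-fold (9.10 to 14.2) higher at 27 °C, and ZPR3 2.68-fold (1.96 to 3.67) and 4.12-fold (3.10 to 5.47). PHV rose 1.79-fold and 1.88-fold, the most of the HD-ZIP III genes in these estimates. REV was lower on SIM at 17 °C (-0.19, edgeR adjusted p = 2.21e-04) and overlapped the 0 h group on SIM at 27 °C (159 ± 0.568 against 163 ± 9.06 CPM; -0.04, edgeR adjusted p = 0.485).

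The order of the group means differed from gene to gene. For REV it ran from CIM at 17 °C through CIM at 27 °C, SIM at 17 °C and SIM at 27 °C to 0 h, and the libraries of CIM at 27 °C and SIM at 17 °C overlapped, as did those of SIM at 27 °C and 0 h. PHB ran from 0 h through both SIM groups to both CIM groups, and within each medium the temperatures overlapped. CNA had CIM at 17 °C and 0 h overlapping at the bottom and then CIM at 27 °C, SIM at 17 °C and SIM at 27 °C, each apart from the next. ZPR3 ran from 0 h upward through CIM at 17 °C, CIM at 27 °C, SIM at 17 °C and SIM at 27 °C, with overlap only between 0 h and CIM at 17 °C. ZPR1 had the same order, with overlap only between CIM at 27 °C and SIM at 17 °C. PHV ran from 0 h through CIM to SIM, with overlap between the temperatures of each medium, and ATHB8 had the 0 h libraries overlapping each CIM group, the CIM groups apart from each other, and both SIM groups above them.

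To compare genes with each other, counts were divided by the length of the counted region, since longer transcripts give more reads. On this scale the 5 HD-ZIP III genes together rose from 155 ± 4.08 CPM per kb at 0 h to 158 ± 3.94 and 175 ± 4.66 on CIM and 194 ± 5.43 and 202 ± 1.49 on SIM (17 °C and 27 °C). The shares within this sum, in percent, were no part of the choice of genes. REV fell from 20.4 ± 1.35% of the family at 0 h to 14.3 to 15.3% in the group means of the other 4 groups, and every 0 h library (19.3 to 21.9%) exceeded every later one (13.6 to 15.6%). PHB held 21.8 ± 1.13% at 0 h, 29.2 ± 0.657% on CIM at 17 °C, 26.0 ± 0.176% on CIM at 27 °C and 21.0 ± 0.253% and 20.6 ± 0.356% on SIM. The CIM ranges for PHB at 17 °C (28.6 to 29.9%) and at 27 °C (25.7 to 26.1%) did not overlap, although the PHB level itself did not pass the temperature test on CIM. PHV held 12.3 ± 0.573% at 0 h and 17.6% on SIM at either temperature, while the group means of CNA (21.7 to 24.0%) and ATHB8 (21.0 to 23.8%) moved by less than 3 percentage points. No test was run on these shares.

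**Figure D3:**
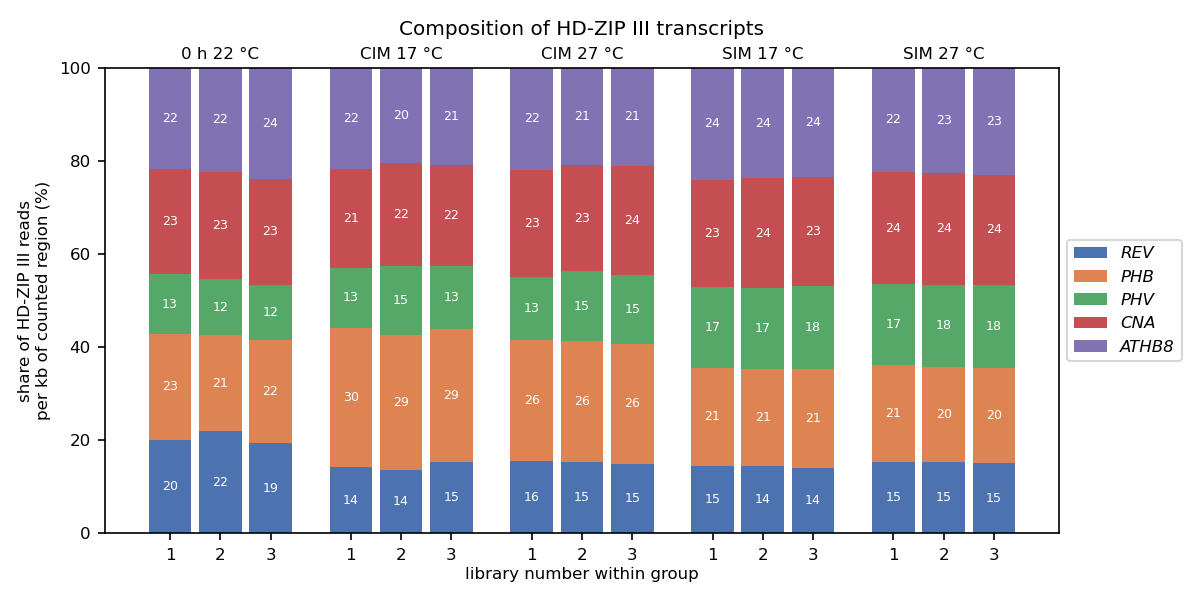
Share of each HD-ZIP III gene in the family's reads per kb of counted region (y axis, percent) in each of the 15 libraries (x axis). REV takes 19.3 to 21.9% at 0 h and 13.6 to 15.6% later, PHB peaks at 28.6 to 29.9% on CIM at 17 °C, and PHV reaches 17.2 to 18% on SIM.

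ZPR1 and ZPR3 together had a higher ratio to the HD-ZIP III genes on CIM than at 0 h, on SIM than on CIM at 17 °C and at 27 °C, and at 27 °C than at 17 °C. They amounted to 4.19 ± 1.37 per 100 HD-ZIP III reads per kb at 0 h, 12.4 ± 0.694 on CIM at 17 °C, 19.1 ± 0.714 on CIM at 27 °C, 19.3 ± 0.596 on SIM at 17 °C and 26.3 ± 1.5 on SIM at 27 °C. The libraries at 27 °C lay above those at 17 °C on CIM (18.6 to 20.4 against 11.7 to 13.1) and on SIM (24.9 to 27.9 against 18.7 to 19.8), while CIM at 27 °C and SIM at 17 °C overlapped. The labels do not say if reads in introns were counted. With exon lengths of the RefSeq annotation the same quantity was 2.92, 7.78, 11.8, 12.2 and 16.8, so its size depends on the length used and its order does not. ZPR2 and ZPR4, described below, were left out of this ratio. ZPR4 stood at 27.7 CPM at 0 h, against 3.07 for ZPR1 and 3.68 for ZPR3, and was lower on SIM than on CIM. The order thus holds for ZPR1 and ZPR3 and was not computed for all LITTLE ZIPPERs. On SIM at 27 °C, ZPR1 stood at 41.3 CPM per kb of counted region, next to PHB at 41.7, but at 36.4 CPM per kb of exon, below all 5 HD-ZIP III genes (44.9 to 74.9).

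The family has 2 further LITTLE ZIPPER genes, with courses of their own. ZPR2 (AT3G60890) had 0 counts at 0 h and on CIM at 27 °C, 1 count on CIM at 17 °C, 5, 0 and 4 counts on SIM at 17 °C and 12, 13 and 13 counts on SIM at 27 °C. It was at least 12.6-fold higher on SIM at 27 °C than on CIM at 27 °C, taking 3 counts as the group floor, and higher at 27 °C than at 17 °C on SIM (1.91 ± 0.54, edgeR adjusted p = 0.0046), a call lost in 1 of 25 alternatives (adjusted p = 0.106). ZPR4 (AT2G36307) was at 27.7 ± 0.96, 29.7 ± 0.988 and 28.3 ± 0.683 CPM at 0 h and on CIM at 17 °C and 27 °C. It fell by 1.60 at 17 °C and by 0.99 at 27 °C on transfer to SIM (edgeR adjusted p = 1.03e-12 and 3.98e-09). On SIM it stood at 10.4, 9.20 and 9.79 CPM at 17 °C and at 15.7, 15.7 and 11.3 CPM at 27 °C, all higher (0.53 ± 0.15, edgeR adjusted p = 0.00482). On SIM all 4 LITTLE ZIPPERs were thus called higher at 27 °C, against 20.7% of all genes, and ZPR2 did so on few counts. On CIM only ZPR1 of the 4 was called higher, against 21.6% of all genes.

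**Figure D4:**
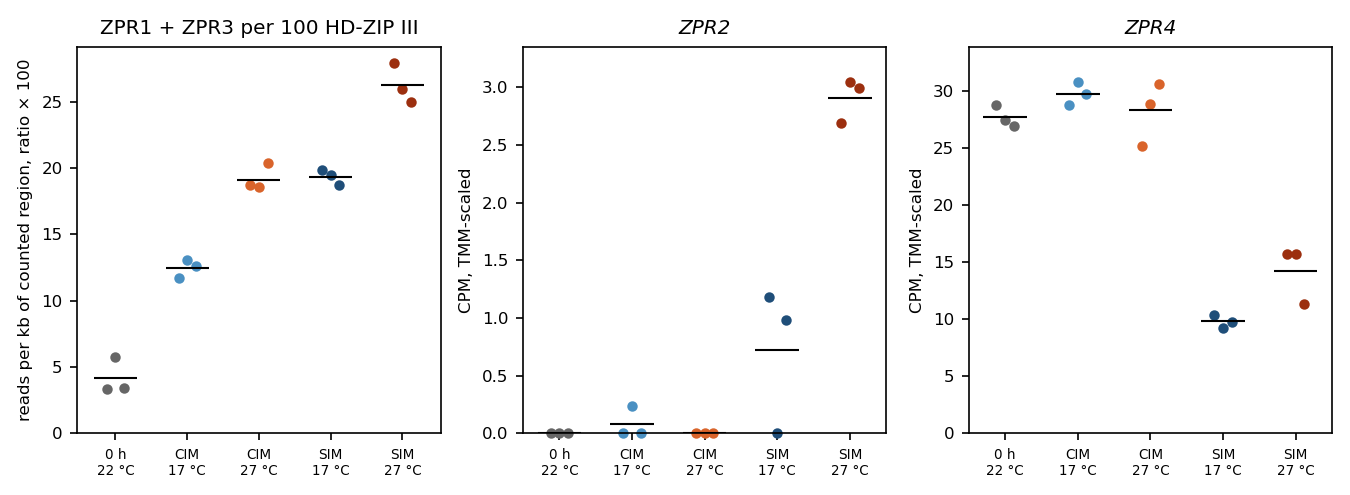
Left, ZPR1 and ZPR3 per 100 HD-ZIP III reads per kb of counted region. Middle and right, ZPR2 and ZPR4 in CPM. The x axes give the groups, points are libraries and lines group means: ZPR2 reaches 2.69 to 3.05 CPM on SIM at 27 °C, and ZPR4 is lower on SIM (9.20 to 15.7 CPM) than on CIM (25.1 to 30.8 CPM).

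Of 8 genes listed as upstream regulators of vascular tissue, 5 were higher and 0 lower at 27 °C on CIM. On SIM 2 were higher and 2 lower. Among all genes the shares were 21.6% higher and 21% lower on CIM and 20.7% and 22.9% on SIM, so the counts on SIM were near the background. The 4 with the smallest p on CIM were PXY, the receptor that keeps cambium cells dividing, MP (MONOPTEROS), the auxin response factor that activates ATHB8 in Arabidopsis leaf veins, WOX4, a cambium homeobox gene, and LHW, a bHLH factor of vascular initials. MP stood at 210, 216 and 204 CPM at 17 °C and at 259, 258 and 251 CPM at 27 °C on CIM, without overlap (0.28 ± 0.04, edgeR adjusted p = 2.42e-07). On SIM the groups of MP overlapped, at 260, 275 and 261 CPM against 271, 280 and 274 CPM (0.05, edgeR adjusted p = 0.221). The difference between temperature effects was called for 4 of the 8, all lower on SIM, against 8.26% of all genes higher and 10.2% lower. The temperature effect was smaller on SIM than on CIM for MP (-0.23 ± 0.05, edgeR adjusted p = 0.00143), PXY (-0.20 ± 0.05, edgeR adjusted p = 0.00201) and WOX4 (-0.34 ± 0.09, edgeR adjusted p = 0.0239). SCR, a ground tissue regulator, was also among the 8. On CIM it stood at 158, 151 and 138 CPM at 17 °C and 146, 151 and 153 CPM at 27 °C. On SIM it went from 39.7, 43.8 and 40.1 CPM at 17 °C to 27.5, 25.1 and 24.4 CPM at 27 °C. LHW shares its whole length with another annotated gene on the same strand, so its counts cannot be divided between them.

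**Figure D5:**
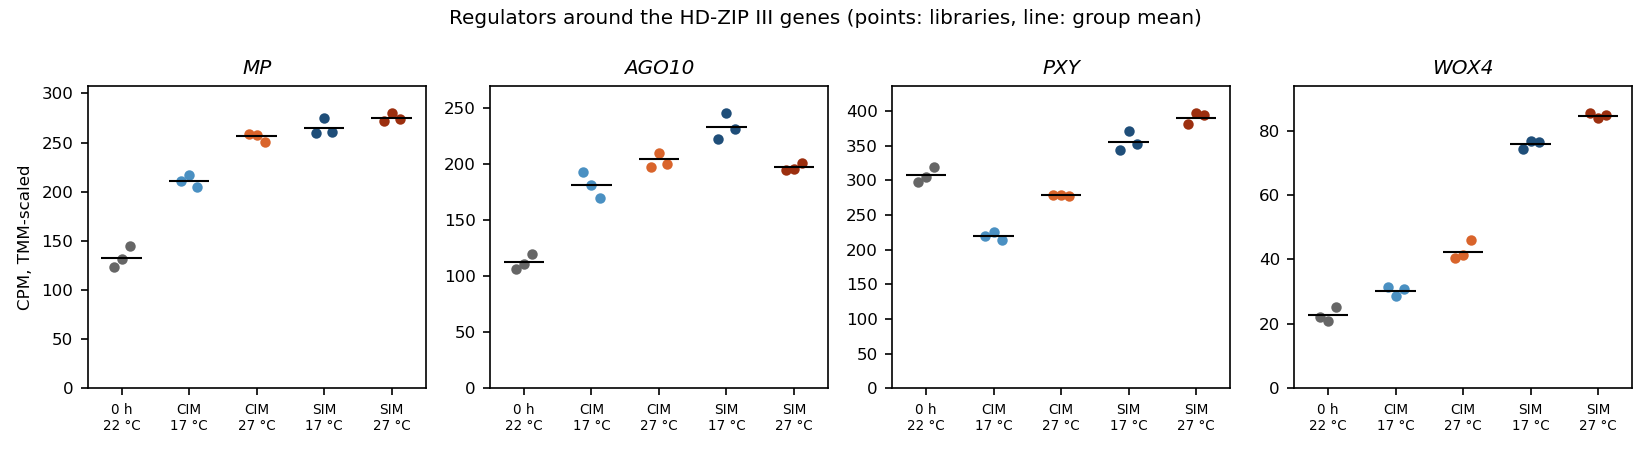
Levels of MP, AGO10, PXY and WOX4 in CPM (y axes, from 0) by group (x axes), with 1 point per library and a line at the group mean. On CIM all 4 lie higher at 27 °C, and on SIM AGO10 is lower at 27 °C (194 to 201 against 222 to 245 CPM).

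Auxin response factors recognise the letters TGTCTC and close variants, and the upstream region of ATHB8 is shown because ATHB8 and MP were both higher at 27 °C on CIM. The 250 bases before the annotated start of ATHB8 hold 1 TGTCTC and 1 TGTCTG, searched on both strands with no overlap between them and printed in capitals, at chr4:15868651-15868900 on the minus strand (RefSeq, TAIR10.1).
ATHB8 upstream: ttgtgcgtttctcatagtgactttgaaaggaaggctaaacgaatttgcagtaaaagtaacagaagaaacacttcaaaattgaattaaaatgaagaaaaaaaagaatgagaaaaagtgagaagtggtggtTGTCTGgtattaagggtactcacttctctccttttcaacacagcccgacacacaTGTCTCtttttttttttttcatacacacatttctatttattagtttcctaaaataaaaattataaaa
Among 27444 such upstream regions, 10.9% held TGTCTC and 6.80% held TGTCTG. Of the other 6 genes none held either in this window, and ZPR4 held 1 TGTCTC. The HD-ZIP core AATNATT, held by 30.5% of regions, was found once each upstream of PHB, PHV and ZPR2 and 2 times upstream of ZPR4. A match is a description of letters and says nothing about binding.

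The 9 precursors of miR165 and miR166 had few counts, and none passed the filter. Their counted regions were 90 to 136 bases long, and regions this short collect few reads. The low counts thus do not show that the precursors were little transcribed. MIR166A had 0 to 9 counts per library and MIR166B 0 to 7, MIR166C and MIR166D had 0 in all 15 libraries, and the other 5 had at most 2. MIR166A had 16 counts in each CIM group, 4 on SIM at 17 °C and 3 on SIM at 27 °C. Without the filter on low counts, MIR166A was lower on SIM than on CIM at 17 °C (-1.94 ± 0.80, edgeR adjusted p = 0.0472) and at 27 °C (-2.28 ± 0.84, edgeR adjusted p = 0.0242). MIR166B, with 2 counts at 0 h and 13 on SIM at 17 °C, was higher in that comparison (2.3 ± 0.95, edgeR adjusted p = 0.0308), and no other precursor change was called without the filter. Mature small RNAs were not part of the measurement. Of 8 genes for proteins that make, load or remove these miRNAs, 3 were higher and 0 lower at 27 °C on CIM, and 4 were higher and 1 lower on SIM. Among all genes the shares were 21.6% higher and 21% lower on CIM and 20.7% and 22.9% on SIM.

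AGO10, the Argonaute that binds miR165 and miR166 and keeps them from HD-ZIP III transcripts, gave opposite temperature effects on the media. It stood at 193, 181 and 170 CPM at 17 °C and at 198, 210 and 200 CPM at 27 °C on CIM, without overlap (0.16 ± 0.04, edgeR adjusted p = 0.0031), a call lost in 2 of 25 alternatives (highest adjusted p = 0.291). On SIM it stood at 222, 245 and 231 CPM at 17 °C and at 194, 196 and 201 CPM at 27 °C, again without overlap but lower (-0.24 ± 0.04, edgeR adjusted p = 1.71e-05). The difference between these effects was called (-0.40 ± 0.06, edgeR adjusted p = 5.91e-06). HST, which exports miRNAs, was higher at 27 °C on CIM (0.18) and on SIM (0.24). SDN2, a nuclease that degrades miRNAs, was also higher on CIM (0.19, edgeR adjusted p = 0.0295) and on SIM (0.20, edgeR adjusted p = 0.0241). On SIM, HYL1, a partner of the miRNA-processing enzyme (0.31), and SDN1 (0.47, edgeR adjusted p = 0.00588), a nuclease related to SDN2, were higher at 27 °C.

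A list of 11 genes reported as HD-ZIP III targets in Arabidopsis was followed, of which 10 passed the filter. At 27 °C on CIM 2 were higher and 3 lower, and on SIM again 2 and 3, with medians of -0.07 and -0.09 on the log2 scale. These counts were near the shares among all genes, 21.6% and 21% on CIM and 20.7% and 22.9% on SIM. HAT2, a class II HD-ZIP gene of auxin response, was higher at 27 °C on CIM (0.26 ± 0.05) and on SIM (0.36 ± 0.05). ATHB2, a class II HD-ZIP gene of shade avoidance, was lower (-0.47 ± 0.08 and -0.58 ± 0.09). LAX3, an auxin influx carrier, was lower at 27 °C, going from 140 ± 6.87 to 68.8 ± 4.54 CPM on CIM (-1.06 ± 0.05, edgeR adjusted p = 7.43e-17) and from 101 ± 5.35 to 38.1 ± 2.68 CPM on SIM (-1.41 ± 0.07, edgeR adjusted p = 9.39e-18). HAT22 was lower on CIM (-0.34 ± 0.05), and ACL5, a thermospermine synthase that limits xylem formation, was lower on SIM (-0.28 ± 0.04).

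On transfer to SIM the reported targets split as well, with 4 higher and 3 lower at each temperature. Among all genes 24.7% were higher and 23.4% lower at 17 °C, and 24.9% and 24.8% at 27 °C. HAT3, a class II HD-ZIP gene with an adaxial role, rose from 6.56 ± 0.983 to 31.8 ± 2.02 CPM at 17 °C (2.28 ± 0.15, edgeR adjusted p = 1.64e-14) and from 6.004 ± 1.82 to 33.5 ± 3.01 CPM at 27 °C (2.37 ± 0.14, edgeR adjusted p = 1.46e-15). LAX2, another auxin influx carrier, rose by 0.56 and 0.51. LAX3 fell by 0.47 and 0.82 over the same step. HAT3 and LAX2 thus changed in the direction of REV, PHV, CNA and ATHB8 on transfer, and LAX3 in the opposite one.

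The antagonists of HD-ZIP III genes that specify the lower (abaxial) side of organs showed no common direction. Of 8 listed genes 7 passed the filter, and 3 were higher and 2 lower at 27 °C on CIM, and 4 higher and 1 lower on SIM. Among all genes the shares were 21.6% higher and 21% lower on CIM and 20.7% and 22.9% on SIM. ARF4, an auxin response factor, was higher on CIM (0.23 ± 0.05) and on SIM (0.50 ± 0.04). YAB3, a YABBY gene, had 1 count in each CIM library at 17 °C and 27, 24 and 38 counts at 27 °C, a ratio of 26.8 (95% counting interval 8.89 to 133). KAN4, another GARP factor, stood at 40.1 ± 3.02 CPM on CIM at 17 °C and at 48.1 ± 3 CPM at 27 °C, and fell by 3.8 and by 4.6 on the log2 scale on transfer to SIM. KAN1, which specifies abaxial fate, stood at 41.7 ± 4.79 CPM at 0 h and between 13.4 and 19.1 CPM in the means of the other groups, and it was lower at 27 °C on SIM (-0.46 ± 0.14, edgeR adjusted p = 0.00756).

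Of 8 genes that act with HD-ZIP III proteins in shoot induction, 7 passed the filter. On transfer to SIM 3 were higher and 2 lower at 17 °C (24.7% and 23.4% of all genes), and 4 were higher and 2 lower at 27 °C (24.9% and 24.8%). ESR1, an AP2/ERF factor whose protein binds PHB, had 0, 2 and 0 counts at 0 h, 10, 12 and 13 on CIM at 17 °C and 44, 41 and 56 on SIM at 17 °C (SIM against CIM 1.97 ± 0.26, edgeR adjusted p = 6.32e-08). At 27 °C ESR1 rose by 1.54 ± 0.22 on transfer (edgeR adjusted p = 2.87e-07), and it was called for temperature on neither medium (edgeR adjusted p = 0.102 and 0.399). ESR2, its paralog, had counts only on SIM at 27 °C, with 8, 6 and 11, and did not pass the filter. WUS, the stem cell regulator that HD-ZIP III proteins and type B response regulators activate, had 0 counts at 0 h and on CIM, 25, 17 and 22 counts on SIM at 17 °C and 74, 51 and 67 counts on SIM at 27 °C (1.46 ± 0.21, edgeR adjusted p = 2.72e-06). STM, a meristem homeobox gene, had 0, 1 and 0 counts on SIM at 17 °C and 30, 27 and 33 on SIM at 27 °C, a ratio of 82.7 (95% counting interval 14.5 to 3302). Of the type B regulators, ARR1 and ARR2 were lower at 27 °C on CIM (-0.34 and -0.22), and ARR10 was lower at 27 °C on SIM (-0.36).

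Markers of differentiated cell types moved with some of these results, and their part in them was not tested. At 27 °C, 21.6% of all genes were called higher and 21% lower on CIM, and 20.7% and 22.9% on SIM. The 8 xylem markers were all lower at 27 °C on CIM and on SIM, where no HD-ZIP III gene was called lower. Their summed level was 1131 to 1198 CPM at 0 h, 526 to 564 and 382 to 395 CPM on CIM at 17 °C and 27 °C, and 684 to 712 and 539 to 560 CPM on SIM. The 7 phloem markers summed to 207 to 240 and 296 to 324 CPM on CIM and to 645 to 679 and 575 to 589 CPM on SIM, and 5 of them were higher and 1 lower at 27 °C on CIM, while 0 were higher and 4 lower on SIM. On transfer to SIM all 8 xylem markers rose at either temperature, as did 7 of 7 phloem markers at 17 °C and 6 of 7 at 27 °C. Over this step 24.7% of all genes were called higher and 23.4% lower at 17 °C, and 24.9% and 24.8% at 27 °C. The 4 epidermis markers summed to 407 to 423 CPM at 0 h, 405 to 440 and 431 to 458 CPM on CIM, and 93.6 to 106 and 82.7 to 97.9 CPM on SIM, and all 4 were lower on SIM than on CIM at either temperature. The 4 endodermis markers summed to 370 to 425 CPM at 0 h, 45.2 to 57.0 and 50.7 to 55.4 CPM on CIM, and 133 to 140 and 59.8 to 74.7 CPM on SIM. On CIM at 27 °C most of this sum was ESB1, at 46.1, 50.9 and 47.5 CPM. ESB1 overlaps a gene on the opposite strand over 1778 of its 2100 bases, and the handling of strand is not given. All 4 endodermis markers were lower on CIM than at 0 h and lower at 27 °C than at 17 °C on SIM. From 0 h to CIM, 39.5% of all genes were called lower at 17 °C and 40.4% at 27 °C. On CIM, 2 of the 4 endodermis markers were lower at 27 °C than at 17 °C. None of the xylem, phloem, epidermis or endodermis markers was at 0 in any group, although the endodermis marker CASP1 had 0, 0 and 1 counts on CIM at 27 °C.

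Genes whose course over the 5 groups was most like that of each member were named by the smallest root mean square distance between centred log2 group means, among 18517 genes with a mean of at least 5 CPM. These distances are descriptions over 5 group means. For CNA the nearest were AT2G03220 (FT1) and AT4G30996 (NKS1), and for ATHB8 AT5G57270 and AT2G13820 (XYP2). CNA and ATHB8 were also close to each other, at a distance of 0.0522 log2 units, with CNA ranking 21 for ATHB8 and ATHB8 ranking 32 for CNA. For REV the nearest were AT3G60320 and AT3G21610, for PHB AT5G25757 and AT1G51580, and for PHV AT5G09460 and AT5G09461, which have identical group means. For ZPR1 they were AT3G04380 (SUVR4) and AT4G23720 at distances of 0.0712 and 0.0809, and for ZPR3 AT1G31330 (PSAF) and AT3G02830 (ZFN1) at 0.0986 and 0.11, while ZPR1 and ZPR3 were 0.717 apart. With a minimum of 2 CPM, 11 of these 14 genes were named again.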

How the data were processed

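The deposited table gives counts, whole numbers of reads per gene and library, as the authors made them. The submitters' processing notes name FastQC 0.11.7, Bowtie2 2.3.4.3, SAMtools 1.9, bedtools 2.26.0 and build TAIR10, without their roles. Handling of strand, exons and duplicates: not given in the sources used here. All 15 columns matched a library title. Genes were filtered with filterByExpr (20704 of 33602 left), scaled by TMM (factors 0.907 to 1.04) and tested in 1 edgeR 4.0.16 quasi-likelihood fit (R 4.3.3) over 15 libraries, with 9 comparisons, each adjusted by Benjamini and Hochberg over all genes, threshold 0.05. Levels are CPM. Counting intervals (95%) and the floor of 3 counts cover counting error only; the other fold intervals are the log2 fold change and its SE from the fit, by the normal distribution. Sequences came from the RefSeq TAIR10.1 genome; 32835 identifiers matched it. On simulated data for CIM, 27 °C against 17 °C (19371 genes), edgeR found 42%, 68%, 90% and 100% of genes changed 1.25, 1.5, 2 and 4 times, with 11 false calls. The simulation used a higher dispersion than the fitted common value of 9.77e-05, and its changed genes all lay above 2 CPM. These rates therefore need not hold for the real fit or for genes at lower levels.

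The 7 genes, 14 lists (108 genes) and comparisons were chosen with earlier results of these data known. Named from the lists were AGO10, ESR1, ESR2, WUS, STM, MP, ZPR2, ZPR4, the miRNA precursors and up to 4 called genes with the smallest p per list and comparison; SDN2 on SIM and KAN1 at 0 h fall outside that rule and were chosen after their values were seen. Alternatives were DESeq2 1.42.0 and its size factors, other filters, a replicate block, compared libraries alone, libraries left out singly or together, and a correction for positions counted once.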

Additional observations from a re-analysis of the deposited data

Results flagged for a closer look

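Among the 7 genes and the genes named in every comparison, 5 passed the edgeR interaction test between the media. The test compared the temperature effect on SIM with that on CIM. Of all genes tested, 8.26% were called higher in it and 10.2% lower. Other listed genes also passed this test, among them PXY and WOX4. For ATHB8 the difference was -0.17 on the log2 scale, from a rise of 0.16 on CIM to -0.01 on SIM. For AGO10 it was -0.40, with a rise on CIM and a fall on SIM. For MP it was -0.23, with a rise of 0.28 on CIM and 0.05 on SIM. For ZPR4 it was 0.61, with -0.08 on CIM and 0.53 on SIM. For STM the fitted difference was 9.11, but it rests on 3 counts on CIM at 17 °C, 0 on CIM at 27 °C, 1 on SIM at 17 °C and 90 on SIM at 27 °C, so its size has no direct meaning.
The ATHB8 call was lost in 13 of 25 alternatives (highest adjusted p = 0.224). The ZPR4 call was lost in 3 of 25 alternatives (highest adjusted p = 0.0686).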

How the results depend on the processing

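Of 1575 results of the 7 genes under alternatives, 1528 kept direction and side of the threshold, 27 lost the call, 8 gained it and 12 changed sign, the last all in changes that had not been called. The number of the 7 genes called on CIM for temperature was 3 instead of 5 when the libraries of CIM that stand apart (3 at 17 °C, 2 at 27 °C) were dropped. The number called for the difference between temperature effects was 0 instead of 1 with DESeq2 size factors and with the DESeq2 test. It was also 0 with libraries 1 and 3 of CIM at 27 °C merged and with the CIM libraries that stand apart dropped. With single libraries left out it was 0 to 2. Signs changed as follows, in log2 fold change. With single libraries left out, ATHB8 for temperature on SIM ranged from -0.030 to 0.0078, CNA on CIM at 17 °C against 0 h from -0.049 to 0.019, ATHB8 in that comparison from -0.105 to 0.0074, ZPR4 on CIM at 27 °C against 0 h from -0.031 to 0.112, REV on SIM at 27 °C against 0 h from -0.058 to 0.017, and STM on SIM at 17 °C against 0 h from -2.05 to 1.88. CNA on CIM at 17 °C against 0 h was also 0.0068 without a filter, 0.0045 with the compared libraries alone, 0.0082 with positions counted once and 0.018 without the CIM libraries that stand apart. Against 0 h library 2 alone, ZPR3 on CIM at 17 °C was -0.14 and STM on SIM at 17 °C was 1.89. The causes were not tested. The replicate numbers did not pair the libraries: deviations from group means correlated at -0.242 to 0.109 in 30 pairs of equal number and at -0.112 to 0.219 in 60 others. The replicate block left 5, 4, 1, 4, 6, 7, 7, 7 and 6 of the 7 genes called in the 9 comparisons, the same numbers as without it. ZPR1 and ZPR3 at 0 h rest on 31 and 37 counts per group and the miRNA precursors on at most 9 per library, so depth limits what these can show.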
